A study of Drosophila melanogaster with 52 samples.

Results

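Embryos of *Drosophila melanogaster* that overexpressed *HIRA* and *dPCIF1* together were compared with wild-type embryos at 0.5 to 1 h after egg laying. The comparison rests on 4 of the 52 RNA-seq libraries of the series, 2 a side, chosen by their genotype and stage labels with all genes kept. In the study, *HIRA* is the histone chaperone that places the variant histone H3.3 into chromatin, and dPCIF1 (gene *CG11399*) is a protein that binds HIRA. Co-overexpression addresses whether raising dPCIF1 together with HIRA changes what extra HIRA does to zygotic genes.

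The co-overexpression embryos carried the Myc-tagged transgenes P{uasp-myc-HIRA} and P{uasp-myc-dPCIF1}, driven in the female germ line by the maternal driver matalpha4-GAL-VP16. They were compared with wild-type embryos collected for the overexpression experiment. Wild-type embryos of the study came from the w1118 strain, and whether this collection carried the driver is not given in the sources used here. Embryos that overexpressed *HIRA* alone at 0.5 to 1 h, and co-overexpression and wild-type embryos at 1 to 1.5 h, are used beside them, also with 2 libraries a group. Each library is a pool of hand-selected embryos, so differences between single embryos cannot be seen, and p-values measure the spread between libraries. Counts on genes totalled 24540315 and 28700431 in co-overexpression libraries, against 22075734 and 27267837 in wild-type libraries. At that depth 3 counts, taken here as the floor of detection, amount to between 0.106 and 0.138 CPM, where CPM are counts per normalized library size on a scale shared by all libraries.

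In the first hours, a fly embryo divides rapidly on RNA and protein that the mother loaded into the egg. A minor wave of zygotic transcription comes first, then a major wave, called zygotic genome activation, that switches on the genes that pattern the body. Pioneer factors, which bind DNA within closed chromatin, prepare these genes: Zelda (gene *vfl*) and GAF (gene *Trl*) are the best known. At the stage examined, most RNA is maternal and zygotic transcripts are scarce.

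Of 8974 genes tested, 624 were called higher in co-overexpression embryos than in wild-type embryos and 533 lower, which is 6.95% and 5.94% of the genes. To be called, a gene had to have a Benjamini-Hochberg adjusted p under 0.05 in the quasi-likelihood test of edgeR and to differ by more than 1 on the log2 scale. Genes of embryonic patterning and antisense RNAs were among those higher, and genes of muscle and of late embryos among those lower, while maternal RNAs hardly differed. The median log2 fold change of all genes was 0.00. Most called genes were scarce. Those called higher had a median of 2.53 CPM in co-overexpression embryos and 0.732 CPM in wild-type embryos, and 220 of them reached 5 CPM in 1 of the groups. Those called lower had a median of 0.0947 CPM in co-overexpression embryos and 0.999 CPM in wild-type embryos, and 97 reached 5 CPM. In 277 of the genes called lower, co-overexpression embryos lay at the floor. In bulk RNA, fewer cells of a type and less RNA per cell cannot be told apart.

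**Figure D1:**
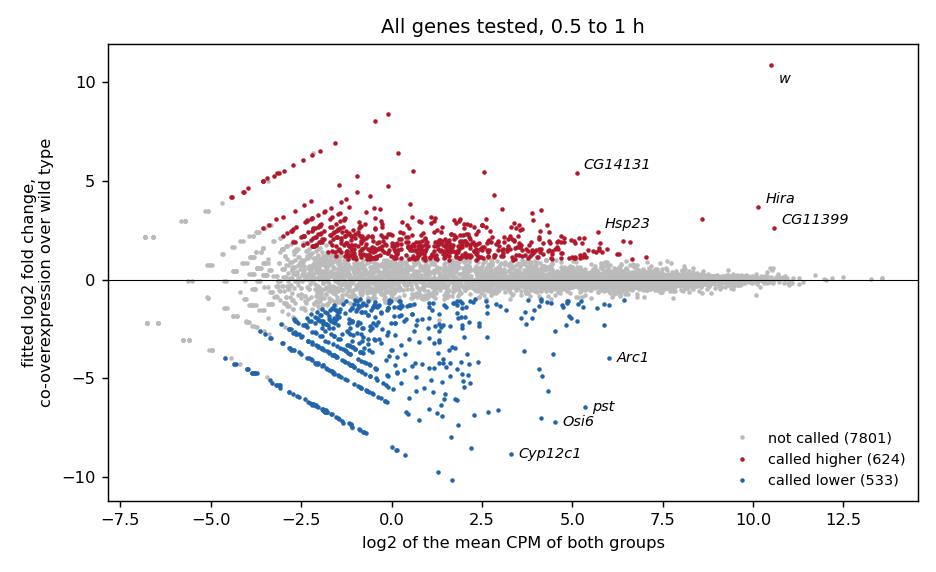
Fitted log2 fold change of co-overexpression over wild type (vertical axis) against the log2 mean CPM of both groups (horizontal axis), 1 point a gene, for genes with a count in these 4 libraries (16 of the 8974 have none). Red points are called higher (624) and blue points called lower (533), and most of both lie on the left, among scarce genes.

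The result depended on which wild type was used. The series holds 4 other wild-type collections of 0.5 to 1 h, made for its *dPCIF1* mutant, *HIRA* mutant, *H3.3* mutant and dPCIF1 S111A S115A experiments. Co-overexpression embryos were set against each of them in 1 fit of 9392 genes, in which the same co-overexpression libraries enter every comparison. Collection and genotype cannot be told apart there. Against the wild types of the *dPCIF1*, *HIRA*, *H3.3* and S111A S115A experiments in this order, 1261 (13.4%), 493 (5.25%), 964 (10.3%) and 384 (4.09%) genes were called higher. In the same order 152 (1.62%), 985 (10.5%), 565 (6.02%) and 261 (2.78%) were called lower. Of the 624 genes called higher against their own wild type, 162 were called higher against all 5 wild types. Of the 533 called lower, 57 were called lower against all 5.

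The overexpressed genes were far above wild type. *Hira* (X:7722119-7725917) had 2075 and 2097 CPM in co-overexpression embryos, against 165 and 163 CPM in wild-type embryos, a log2 fold change of 3.67 (SE 0.03, edgeR adjusted p = 1.53e-23). *CG11399*, which encodes dPCIF1 (3L:20780350-20786197), had 2650 and 2609 CPM in co-overexpression embryos, against 437 and 439 CPM in wild-type embryos (log2 fold change 2.59, SE 0.03, edgeR adjusted p = 7.34e-22). Embryos that overexpressed *HIRA* alone had 403 and 399 CPM of *CG11399*, near wild type, so the labels of the 3 groups fit their targeted genes. *Hira* and *CG11399* together had 2762 and 2731 CPM in those embryos, most of it *Hira*.

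Genes whose sequence UASp transgenes carry were also higher. Such transgenes are marked by a copy of the eye-colour gene *w* and end in the 3' part of *fs(1)K10*, a gene of egg polarity. *w* had 2918 and 2884 CPM in co-overexpression embryos, against 1.51 and 1.59 CPM in wild-type embryos, and 1345 and 1292 CPM under *HIRA* alone. *fs(1)K10* had 725 and 654 CPM in co-overexpression embryos, against 83.3 and 84.3 CPM in wild-type embryos (log2 fold change 3.04). Reads of the transgenes and of the endogenous genes cannot be told apart in these counts. *alphaTub67C*, the maternal tubulin gene whose promoter the driver uses, had 725 and 766 CPM in co-overexpression embryos and 815 and 810 CPM in wild-type embryos (log2 fold change −0.12).

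**Figure D2:**
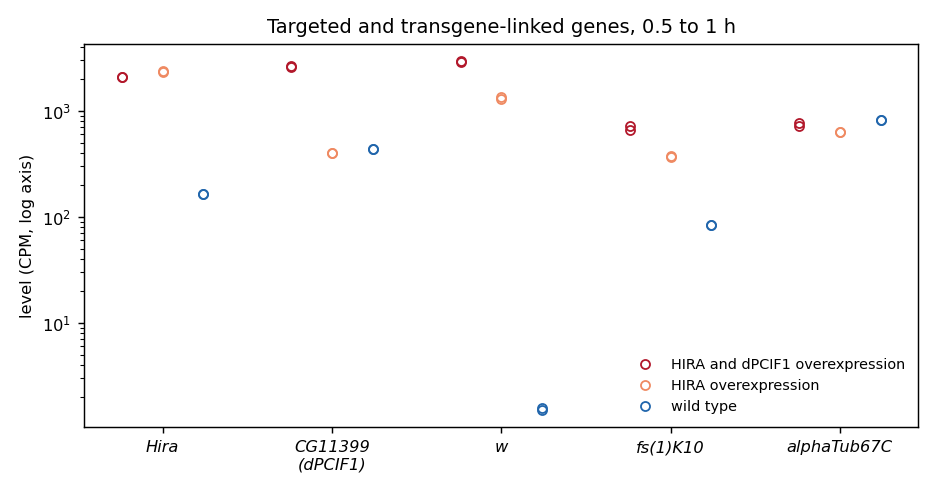
Levels in CPM on a log axis of both targeted genes, *w*, *fs(1)K10* and *alphaTub67C*, 1 circle a library. *Hira* is high in both overexpressions, and *CG11399* is at 2650 and 2609 CPM in co-overexpression libraries and between 399 and 439 CPM in the others.

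The genes that encode the pioneer factors themselves did not pass the test. *vfl* had 652 and 616 CPM in co-overexpression embryos and 610 and 627 CPM in wild-type embryos (log2 fold change 0.03, edgeR adjusted p = 0.462). *Trl* had 138 and 131 CPM in co-overexpression embryos and 137 and 140 CPM in wild-type embryos (log2 fold change −0.05, edgeR adjusted p = 0.38). One other pioneer, *opa*, a pair-rule gene that opens chromatin late in cellularisation, had 16.4 and 16.5 CPM in co-overexpression embryos, against 4.63 and 4.03 CPM in wild-type embryos (log2 fold change 1.93). Of 5 genes that the study names as GAF targets, *twi*, the mesoderm determinant, was called: 12.1 and 12.2 CPM in co-overexpression embryos, against 3.07 and 3.33 CPM in wild-type embryos (log2 fold change 1.92, edgeR adjusted p = 4.75e-11). The Hox genes *Abd-B* and *abd-A* and the gap gene *kni* had log2 fold changes of 0.91, 0.60 and 0.53, which passed the p threshold but not the fold. *Ubx*, another Hox gene, had 0.34 (edgeR adjusted p = 0.255).

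Patterning genes were higher in co-overexpression embryos than in their own wild type. Over 7 lists (gap, pair-rule, segment polarity, Hox, mesoderm, neuroectoderm and dorsal ectoderm), 50 of the 103 genes tested were called higher and 0 lower, with a median log2 fold change of 0.97. This is 48.5% of them, beside 6.95% of all genes. Their median level was 6.21 CPM in co-overexpression embryos and 2.99 CPM in wild-type embryos. Segment polarity genes, which hold the borders of segments, gave 8 of 11 called higher (median log2 fold change 1.92), and mesoderm and gastrulation genes gave 14 of 21 (median 1.50). Among neuroectoderm genes 9 of 16 were called higher, among pair-rule genes 5 of 10, and among dorsal ectoderm genes 9 of 22. Gap genes gave 5 of 17 and Hox genes 2 of 8.

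Segment polarity genes included ligands and receptors. *wg*, the fly Wnt ligand, had 7.8 and 6.77 CPM in co-overexpression embryos, against 1.15 and 1.7 CPM in wild-type embryos (log2 fold change 2.32, edgeR adjusted p = 1.08e-09). *ptc*, the receptor of Hedgehog, had 45.2 and 40.6 CPM in co-overexpression embryos, against 10.8 and 11.8 CPM in wild-type embryos (log2 fold change 1.92). *hh*, its ligand, had 1.99 and 2.48 CPM in co-overexpression embryos, against 0.367 and 0.629 CPM in wild-type embryos. In all 3 genes the libraries of the groups did not overlap. This held for all 624 genes called higher, but it follows largely from how genes were called. *en*, the selector of posterior compartments, had 4.07 and 4.01 CPM in co-overexpression embryos and 1.1 and 1.04 CPM in wild-type embryos. Among pair-rule genes, *prd* had the largest change: 8.84 and 7.8 CPM in co-overexpression embryos, against 1.37 and 1.26 CPM in wild-type embryos (log2 fold change 2.66, SE 0.17). *eve* and *ftz*, the primary pair-rule genes, had log2 fold changes of 0.87 and 0.88, which were not called.

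Mesoderm genes included those of membrane and signalling proteins. *18w*, a Toll-like receptor, had 45.2 and 43.9 CPM in co-overexpression embryos, against 9.39 and 10.9 CPM in wild-type embryos (log2 fold change 2.12). *Traf4*, an adaptor of epithelial folding, had 28.4 and 27 CPM in co-overexpression embryos, against 6.55 and 5.88 CPM in wild-type embryos (log2 fold change 2.16). *Mdr49*, an ABC transporter needed for germ cell migration, had 30 and 28 CPM in co-overexpression embryos, against 5.59 and 5.1 CPM in wild-type embryos (log2 fold change 2.44, SE 0.09). In the neuroectoderm list, *ths*, an FGF ligand, had 8.05 and 5.96 CPM in co-overexpression embryos, against 1.15 and 0.851 CPM in wild-type embryos, and *SoxN*, a neural determinant, had 12.2 and 12.3 CPM against 3.39 and 2.96 CPM in wild-type embryos. In the dorsal ectoderm, *cv-2*, which modulates BMP signalling, had 6.35 and 6.7 CPM in co-overexpression embryos, against 1.7 and 1.74 CPM in wild-type embryos (log2 fold change 1.92). *Doc2* and *Doc3*, T-box genes of the amnioserosa, had log2 fold changes of 1.90 and 1.91.

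Genes of earlier steps were examined as well, beside 6.95% called higher and 5.94% lower over all genes. Of 35 minor-wave zygotic genes, 8 were called higher and 0 lower (22.9%, median log2 fold change 0.38), among them *sna*, the repressor that sets the mesoderm border, with 12.5 and 12.1 CPM in co-overexpression embryos, against 3.89 and 4.7 CPM in wild-type embryos. Cellularization genes gave 0 calls by edgeR and 0 by DESeq2 among 15 tested, with 8 at an unadjusted edgeR p under 0.05 (median 0.06): *slam*, needed for furrow growth, had 375 and 371 CPM in co-overexpression embryos and 376 and 387 CPM in wild-type embryos.

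Genes were also grouped by their course in other wild types. Rising genes, which are under 2 CPM at 0.5 to 1 h and at least 5 CPM with a log2 gain above 2 by 2.5 to 3 h in the wild types of the *HIRA* and *H3.3* mutant experiments, gave 35.2% called higher and 15 genes called lower among 327 tested, with a median log2 fold change of 0.72. Over all genes, 6.95% were called higher and 5.94% lower. The median level of rising genes was 0.846 CPM in co-overexpression embryos and 0.589 CPM in wild-type embryos. Those that rise early gave 64 higher and 1 lower of 117 (median 1.18), and those that rise late gave 51 and 14 of 210 (median 0.49). None of the called rising genes reached 5 CPM, so *ko*, *pyd3* and *net* stand as examples chosen after their values were seen. *ko* had 4.65 and 5 CPM in co-overexpression embryos, against 1.1 and 1.26 CPM in wild-type embryos. *pyd3*, an enzyme of pyrimidine breakdown, had 4.65 and 5 CPM in co-overexpression embryos, against 2.06 and 2.15 CPM in wild-type embryos. *net*, a bHLH factor of wing veins, had 4.56 and 4.04 CPM in co-overexpression embryos, against 0.962 and 0.666 CPM in wild-type embryos.

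**Figure D3:**
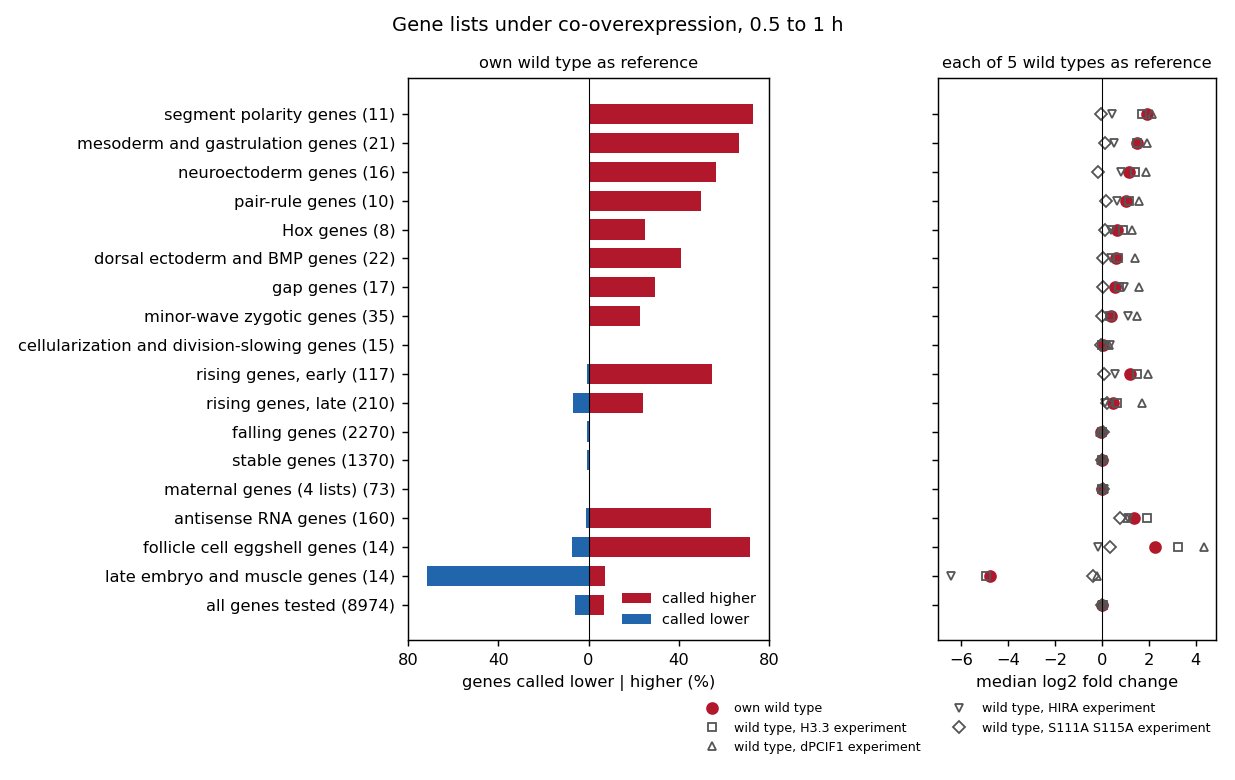
Left, the share of the genes of each list called higher (red, to the right) and lower (blue, to the left) in co-overexpression over its own wild type, with the number tested in brackets. Right, the median fitted log2 fold change of each list over its own wild type (filled circle) and over 4 other wild types (open symbols). Rising, falling and stable genes were chosen by their levels in the *HIRA* and *H3.3* wild types, so their values against those are not independent of the choice. Most patterning lists lie right of 0 against 4 of the 5 wild types and near 0 against the wild type of the S111A S115A experiment.

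Against other wild types, the patterning genes were not always higher. Of the 103, 77 were called higher against the wild type of the *dPCIF1* mutant experiment, 28 against that of the *HIRA* mutant, 50 against that of the *H3.3* mutant and 1 against that of the S111A S115A experiment, where the median was 0.06. Shares over all genes in this order were 13.4%, 5.25%, 10.3% and 4.09%. *Mdr49* was the patterning gene called against all 5, as were 162 of the 8974 genes tested. Levels of the other wild types are scaled in the fit with all 5. *ptc* had 45.2 and 40.6 CPM in co-overexpression embryos and 32.1 and 32.6 CPM in the S111A S115A wild type, but 9.61 and 9.56 CPM in the *dPCIF1* wild type. *twi* had 12.1 and 12.2 CPM in co-overexpression embryos and 8.94 and 9.58 CPM in the S111A S115A wild type. Rising genes gave 230 of 327 called higher against the *dPCIF1* wild type and 22 against the S111A S115A wild type, beside 13.4% and 4.09% of all genes. Whether the pooled embryos of the collections differed in age within the stage was not tested.

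**Figure D4:**
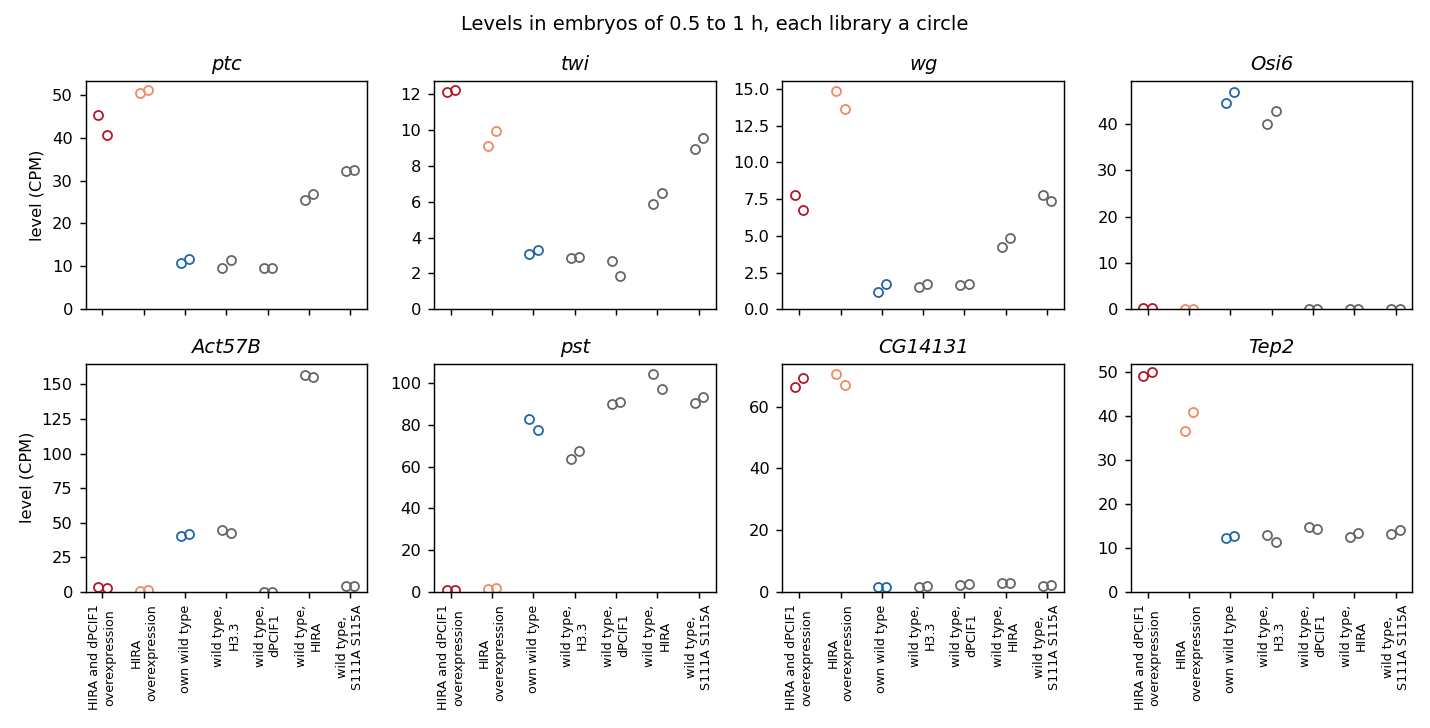
Levels in CPM (vertical axes, each from 0) of 8 genes in co-overexpression, *HIRA* overexpression and 5 wild types, 1 circle a library. The other wild types are scaled in a separate fit. *pst* is low in both overexpressions and between 63.8 and 104 CPM in all 5 wild types, while *Osi6* is high in its own wild type and in that of *H3.3* and near 0 elsewhere.

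Adding dPCIF1 to HIRA went with fewer patterning calls than HIRA alone. Whether the embryos of both overexpression groups differed in HIRA dose, or in age within the stage, was not tested. *HIRA* overexpression alone against the same wild type called 73 of the 103 genes higher and 0 lower (median log2 fold change 1.86, beside 9.66% higher and 5.19% lower over all genes), a comparison that shares its wild type with co-overexpression. Co-overexpression set directly against *HIRA* overexpression called 0 higher and 31 lower among them, and over all genes 155 higher (1.73%, but 100 genes by DESeq2) and 492 lower (5.48%). *ft*, an atypical cadherin of planar polarity, had 37.5 and 38.2 CPM in co-overexpression embryos, against 96.5 and 97.1 CPM in *HIRA* overexpression embryos, and 14.9 and 15 CPM in wild-type embryos. *ci*, the Hedgehog effector, had 36.8 and 31.5 CPM in co-overexpression embryos, against 89.1 and 88.6 CPM in *HIRA* overexpression embryos.

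Maternal RNAs hardly differed. The counts in this paragraph stand beside 6.95% of all genes called higher and 5.94% called lower. Over 4 maternal lists (axis, Toll and Dorsal pathway, germ plasm and piRNA, egg activation), 0 of 73 genes were called by edgeR and 0 by DESeq2, while 39 had an unadjusted edgeR p under 0.05 (median log2 fold change −0.01). *nos*, of the posterior pole, had 982 and 975 CPM in co-overexpression embryos and 1003 and 1001 CPM in wild-type embryos. *osk*, which assembles the germ plasm, had 1722 and 1710 CPM in co-overexpression embryos and 1677 and 1709 CPM in wild-type embryos. Falling genes, maternal by their course, gave 10 called higher and 15 lower of 2270, and stable genes 2 and 8 of 1370. Among the falling genes that did change, *Dhc98D*, a dynein heavy chain, had 2.2 and 1.63 CPM in co-overexpression embryos, against 23.7 and 22.9 CPM in wild-type embryos (log2 fold change −3.61). Among 86 cytosolic ribosomal protein genes 1 was called lower (*RpS10a*), and among 35 proteasome genes 1 was called higher (*Rpt6R*), which DESeq2 did not call. In a list of 37 cleavage cell-cycle genes the 1 call was *ci*, a patterning gene entered there by mistake.

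Many antisense RNA genes, as the annotation names them, were higher. Most lie on the strand opposite a coding gene that was tested, but 17 of the 160 tested have none opposite them. Of the 160, 87 were called higher and 2 lower (*CR43460* and *CR43866*), beside 6.95% and 5.94% of all genes. The median fitted log2 fold change of the 160 was 1.39, beside 0.00 for all genes. With bounds for the 20 that lay at the floor in 1 group, it was 1.18. They took 0.0376% and 0.0353% of the counts in co-overexpression libraries, against 0.0187% and 0.0190% in wild-type libraries. *CR45330*, which has no tested coding gene opposite it, had 16.5 and 14.2 CPM in co-overexpression embryos, against 1.19 and 1.33 CPM in wild-type embryos (log2 fold change 3.59, SE 0.21, edgeR adjusted p = 1.03e-10). *CR31144*, opposite the ribosomal protein gene *RpL3*, had 8.01 and 6.49 CPM in co-overexpression embryos, against 1.74 and 1.48 CPM in wild-type embryos. *CR43430*, opposite *hts*, a cytoskeletal gene of ring canals, had 9.17 and 7.83 CPM in co-overexpression embryos, against 1.97 and 2.63 CPM in wild-type embryos.

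Set directly against *HIRA* overexpression, co-overexpression called 47 of the 160 antisense genes higher and 6 lower, beside 1.73% and 5.48% of all genes. *HIRA* overexpression alone called 23 higher than the same wild type, beside 9.66% of all genes. *CR45330* had 16.5 and 14.2 CPM in co-overexpression embryos, against 4.67 and 4.54 CPM under *HIRA* alone. Against the other wild types, 83, 78, 113 and 57 antisense genes were called higher, for the *dPCIF1*, *HIRA*, *H3.3* and S111A S115A collections in this order. Shares over all genes were 13.4%, 5.25%, 10.3% and 4.09%. Against all 5 wild types, 33 antisense genes were called higher, beside 162 of the 8974 genes tested. The 82 antisense genes called higher with a tested coding gene on the other strand overlap 79 such genes (taking for each the one most abundant in wild type), whose median log2 fold change was 0.04, with 2 called higher and 0 lower. Whether the counting used the strand of the reads is not given in the sources used here, so reads of overlapping partners may not be told apart.

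**Figure D5:**
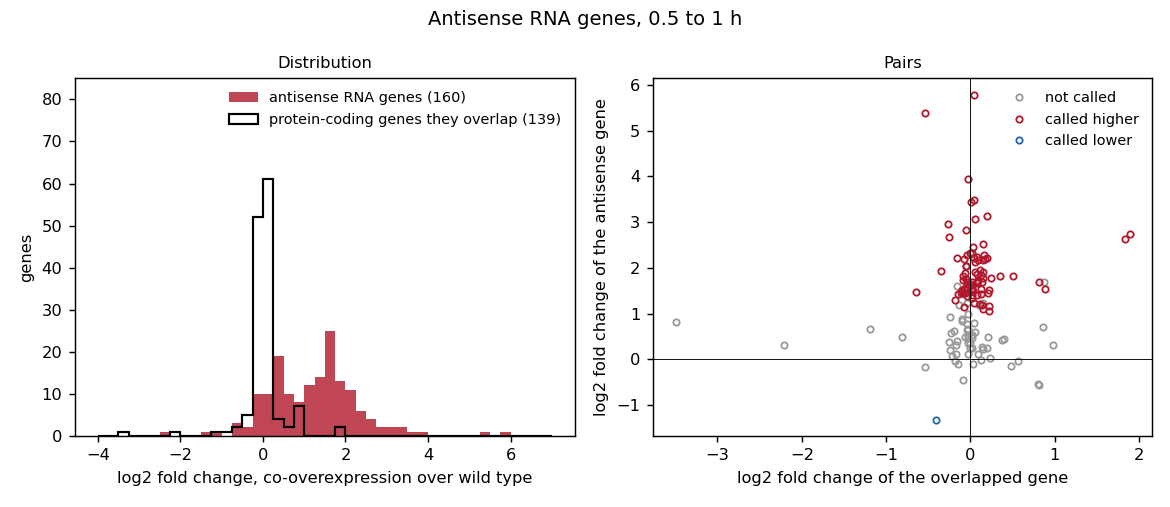
Left, distribution of the log2 fold change of the 160 antisense RNA genes (red) and of the distinct protein-coding genes they overlap (black outline). Right, each antisense gene with such a partner (vertical axis) against its overlapped gene (horizontal axis), coloured by its call: antisense genes called higher lie between 1 and 6, *CR43460*, called lower, lies at −1.32, and most of their partners lie near 0.

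The largest higher calls of at least 5 CPM included genes with no patterning role. *CG14131*, a gene of unknown function, had 66.5 and 69.3 CPM in co-overexpression embryos, against 1.7 and 1.55 CPM in wild-type embryos (log2 fold change 5.39, SE 0.08). *CG34353* had 12 and 11.2 CPM in co-overexpression embryos, against 0.321 and 0.222 CPM in wild-type embryos. *Hsp23*, a small heat shock protein, had 87.1 and 88.2 CPM in co-overexpression embryos, against 15.4 and 17.2 CPM in wild-type embryos. All 3 were called against all 5 wild types. *Tep2*, a thioester protein of immunity, had 49.2 and 50.1 CPM in co-overexpression embryos, against 12.3 and 12.6 CPM in wild-type embryos, and between 11.4 and 14.8 CPM in the other 4 wild types. Under *HIRA* alone *CG14131* had 70.5 and 66.9 CPM and *Tep2* 36.8 and 41.1 CPM.

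Some genes among the 162 called higher against all 5 wild types were also called higher than under *HIRA* overexpression (51, of which 22 are antisense). Over all genes, 155 (1.73%) were called higher in that comparison. The 162 were chosen for high levels in the same co-overexpression libraries, so the overlap is in part built in. *kek1*, a transmembrane inhibitor of EGF receptor signalling, had 6.8 and 7.02 CPM in co-overexpression embryos, against 2.07 and 2.38 CPM in *HIRA* overexpression embryos and 1.05 and 1.66 CPM in wild-type embryos. *scb*, an alpha integrin, had 10.5 and 9.11 CPM in co-overexpression embryos, against 5.04 and 4.43 CPM in *HIRA* overexpression embryos and 2.61 and 2.81 CPM in wild-type embryos. *Or2a*, an odorant receptor gene that lies next to *fs(1)K10*, had 1.95 and 1.63 CPM in co-overexpression embryos, against 0.0916 and 0.037 CPM in wild-type embryos, at least 13.0-fold higher. Whether transgene reads were counted on it was not tested.

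Genes lower in co-overexpression embryos included those of differentiated embryos and a set that was low against every wild type. *pst*, a gene of resistance to viruses, had 0.83 and 0.957 CPM in co-overexpression embryos, against 82.7 and 77.5 CPM in wild-type embryos (log2 fold change −6.47, SE 0.09, edgeR adjusted p = 6.38e-20). *HIRA* overexpression embryos had 1.48 and 1.67 CPM of *pst*. *Arc1*, a Gag-like gene of RNA transfer between cells, had 8.17 and 7.37 CPM in co-overexpression embryos, against 126 and 118 CPM in wild-type embryos, and 15.8 and 18.9 CPM under *HIRA* alone. *Cyp12c1*, a mitochondrial P450, was at the floor in co-overexpression embryos, at least 159-fold lower than the 19.4 and 20.2 CPM of wild-type embryos. Of the 57 genes lower against all 5 wild types, 41 were also called lower under *HIRA* alone and 50 at 1 to 1.5 h. Over all genes, 5.19% and 7.02% were called lower in these comparisons. The comparison of *HIRA* alone shares its wild-type libraries with the choice of the 57, so that overlap is in part built in. *Drep-1*, of the DNA fragmentation factor family, had 13.9 and 12.7 CPM in co-overexpression embryos, against 77.1 and 77.9 CPM in *HIRA* overexpression embryos and 57 and 55.7 CPM in wild-type embryos.

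Late embryo and muscle genes were lower against their own wild type, with a median fitted log2 fold change of −4.78. In 7 of them 1 group lay at the floor, and with bounds for those the median was −3.51. Of 14 tested, 10 were called lower and 1 higher, beside 5.94% and 6.95% of all genes. *Mhc*, the muscle myosin heavy chain, had 0.871 and 0.744 CPM in co-overexpression embryos, against 40 and 39.4 CPM in wild-type embryos. *Osi6*, of a gene family of the cuticle and airways, had 0.332 and 0.284 CPM in co-overexpression embryos, against 44.5 and 46.9 CPM in wild-type embryos. The summed level of 6 differentiated embryo markers was between 13.8 and 16.1 CPM in co-overexpression libraries, between 88.1 and 88.8 CPM in wild-type libraries and between 3.44 and 306 CPM in the other wild types. *Mhc* had 0.857 and 1.19 CPM in the *dPCIF1* wild type, and whether older embryos entered some pools was not tested. None of these 14 genes was called lower against all 5 wild types, but few genes were (57 of the 8974 tested).

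Follicle cell genes and yolk genes differed as well. Of 14 eggshell genes, 10 were called higher and 1 lower (median fitted log2 fold change 2.25), beside 6.95% and 5.94% of all genes. With bounds for the 3 that lay at the floor in 1 group, the median was 1.65. *Cp38*, a chorion gene, had 5.89 and 5.88 CPM in co-overexpression embryos, against 0.779 and 0.666 CPM in wild-type embryos, and 22.6 and 22.3 CPM under *HIRA* alone. The 16 follicle cell markers summed to between 27.0 and 27.8 CPM in co-overexpression libraries, between 7.02 and 7.70 CPM in wild-type libraries and between 0.737 and 73.3 CPM in the other wild types. Of the 3 yolk protein genes, *Yp2* had 0.29 and 0.248 CPM in co-overexpression embryos, against 1.65 and 2.11 CPM in wild-type embryos. Testis markers were at most 0.0453 CPM in these 4 libraries, and early embryo markers summed to between 3671 and 3696 CPM in co-overexpression libraries and between 3624 and 3671 CPM in wild-type libraries. The part of residual ovary or older embryo tissue in these differences was not tested.

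Several families split. Among cytochrome P450 genes, 10 of 39 were called higher and 8 lower, beside 6.95% and 5.94% of all genes. Against all 5 wild types, 7 and 4 of the P450 genes were called, beside 162 and 57 of the 8974 genes tested. *Cyp12d1-d*, of a pair of near-identical copies whose reads may be shared between them, had 26.6 and 26.8 CPM in co-overexpression embryos, against 3.07 and 2.26 CPM in wild-type embryos. Among 19 heat shock genes 1 was called higher and 3 lower by edgeR, and 1 higher and 0 lower by DESeq2, all 3 lower calls being *Hsp70* copies. *Hsp70Aa*, one of several near-identical copies, had 9.91 and 9 CPM in co-overexpression embryos, against 47.1 and 46.7 CPM in wild-type embryos. The dosage compensation RNA *roX1* had 79.3 and 81 CPM in co-overexpression embryos, against 26.1 and 27.3 CPM in wild-type embryos. Among protein-coding genes, those without introns made up 12.9% of the 505 called higher and 5.79% of the 518 called lower, beside 8.96% of all tested.

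At 1 to 1.5 h, co-overexpression against its wild type called 445 genes higher (4.96%) and 630 lower (7.02%). The log2 fold change of co-overexpression over wild type was called higher at 1 to 1.5 h than at 0.5 to 1 h for 89 genes (0.992%) and lower for 417 (4.65%). Of the 417, 177 were called higher at 0.5 to 1 h and not called later, 135 were not called at 0.5 to 1 h and called lower later, 33 were called higher and then lower, and 21 were called lower at both. Among the 103 patterning genes 13 were called higher at the later stage and 11 lower, with a median of 0.05, and the difference between stages was called for 1 upward and 46 downward. The median level of the 103 genes was 8.08 CPM in co-overexpression embryos and 6.46 CPM in wild-type embryos at 1 to 1.5 h. At 0.5 to 1 h it was 6.21 and 2.99 CPM. Of the 8 Hox genes, 5 were called lower at the later stage, where their median level was 1.75 CPM in co-overexpression embryos and 4.20 CPM in wild-type embryos. *wg* had a difference between stages of −2.42 on the log2 scale.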

How the data were processed

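RNA-seq of pooled embryos was analysed in 12 libraries of 6 groups (*HIRA* and *dPCIF1* overexpression, *HIRA* overexpression and wild type, at 0.5 to 1 h and 1 to 1.5 h), with 4 other wild types of 0.5 to 1 h beside them. Total RNA was extracted with TRIzol, depleted of rRNA and made into strand-specific libraries with a VAHTS kit, although the labels name the molecule polyA RNA. The submitters' processing notes name Trimmomatic 0.39, STAR 2.7.10a and dm6, and the authors deposited the expected count per gene of RSEM 1.3.1, of which between 94.99% and 96.38% of values are whole as written (no remainder allowed), and the TPM per gene, used only to compare levels between genes. For their own calls the authors used DESeq2 1.40.2. Whether counting used the strand is not given in the sources used here. In the dPCIF1 and H3.3 collections the effective length was between 199.44 and 230.68 bases below the length, against between 98.55 and 98.67 in these 12 libraries.

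The expected counts were rounded, filtered by filterByExpr (minimum count 10, minimum total count 15), scaled by TMM and fitted with edgeR 4.0.16 (R 4.3.3) over all 12 libraries without a replicate block, using its quasi-likelihood test. Genes were called at a Benjamini-Hochberg adjusted p below 0.05 where the log2 fold change exceeded 1 in size. Totals of the 12 libraries ran from 16886218 to 28700431. The chi-square over its degrees of freedom between the libraries of a group was 3.41 in co-overexpression and 2.13 in wild type, above sampling noise in both. Counting intervals and floors cover counting error only. A group with at most 3 counts in both libraries lies at the floor, and fold changes against it are bounds.

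Rising genes were defined in the wild types of the *HIRA* and *H3.3* experiments, falling and stable genes likewise at 10 CPM or more. Named genes are the targeted and transgene-linked genes, the 12 most changed genes in each direction among those at 5 CPM or more whose groups do not overlap, up to 4 called genes of each list (all where there are 5 or fewer), genes the study names, up to 4 called rising and 4 called falling genes at 5 CPM or more, and the 4 called genes of highest TPM in wild type. No rising gene met the rule. Other genes were named after their values were seen. The members, lists and tests were chosen with earlier results of these data known. *th* had been entered in the neuroectoderm list by mistake and was removed after values were seen, and *ci* stands in the cell-cycle list by mistake. Positions come from dm6 annotation: 16449 genes matched by transcript, 44 by symbol, 135 by synonym and 52 not at all. Alternatives were library-size scaling, scaling on stable maternal genes, DESeq2 1.42.0, no low-count filter, 4 libraries only, a replicate block, leaving out each library, other wild types and other list definitions. The fit was tested on simulated data.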

Additional observations from a re-analysis of the deposited data

Results flagged for a closer look

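The effect of co-overexpression differed between 1 to 1.5 h and 0.5 to 1 h for 89 genes upward and 417 downward by edgeR's interaction test, and 39 genes were called in opposite directions at the 2 stages. Of 135 named genes, 45 had a called difference. The values below are the log2 fold change at 1 to 1.5 h minus that at 0.5 to 1 h. In 10 of the 45, 1 of the 4 groups lay at or under 3 counts, so that the fitted value depends on the prior count and is no bound.

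The patterning genes named below had negative values, which is no statement of size: *tup* had a log2 fold change of 1.99 at 0.5 to 1 h and −1.03 at 1 to 1.5 h, *Ance* 1.56 and −1.01, and both were called higher and then lower. The value was −3.30 for *mid*, −3.03 for *tup*, −2.42 for *wg*, −2.37 for *ind*, −2.22 for *stumps* and for *18w*, −2.21 for *ths*, −2.44 for *Traf4* and −2.18 for *Doc2*. It was −2.11 for *pdm2*, −2.07 for *sim*, −2.06 for *knrl*, −2.02 for *SoxN*, −2.01 for *gsb* and *Doc3*, −2.0 for *hh*, −1.80 for *slp2*, −1.36 for *cv-2* and −1.06 for *prd*. Hox genes gave −2.20 for *Abd-B*, −2.19 for *Dfd*, −2.03 for *abd-A*, −1.83 for *Antp* and −1.73 for *Ubx*, of which *Abd-B*, *abd-A* and *Ubx* were not called at 0.5 to 1 h and were called lower later. *Ance* gave −2.57, *E(spl)m5-HLH* −1.86 and *ci* −1.76.

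Other genes with negative values were *Spn28Da* (−12.69), *Spn43Aa* (−5.13), *roX2* (−4.07), *5-HT2A* (−3.47), *CG32982* (−2.47), *dib* (−2.07), *Pepck* (−2.04), *dan* (−1.97), *HmgZ* (−1.83), *roX1* (−1.5), *CG10013* (−1.16) and *Dhc98D* (−1.15). *Spn28Da* and *roX2* lay at the floor in wild type at 0.5 to 1 h, where co-overexpression embryos were at least 10.7-fold and 4.75-fold higher. At 1 to 1.5 h their log2 fold changes were −4.67 and −1.68. *Spn43Aa* and *Dhc98D* were called lower at both stages. The value was positive for *CG3108* (10.18), *Cp38* (8.84), *CG45088* (8.56), *Yp2* (6.79), *Yp1* (5.37) and *dyl* (5.23). All 6 are among the 10 genes with a group at or under 3 counts, so these values are no measured sizes. The other 4 of the 10 had negative values.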

How the results depend on the processing

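Counts and medians are for co-overexpression over wild type at 0.5 to 1 h unless stated, beside 624 higher, 533 lower, a rising median of 0.72 and 64 early and 51 late rising genes higher. Library-size scaling gave 618 and 537, stable gene scaling 623 and 535, no filter 672 and 652, 4 libraries 550 and 426, and DESeq2 509 and 431. With the replicate block there were 613 and 526 calls. The replicate numbers do not pair the libraries: same-numbered libraries correlated at 0.043, within the range of all pairs (−0.171 to 0.113). With no fold threshold 2054 and 2031 passed. DESeq2 gave 100 genes higher than under *HIRA* overexpression, beside 155. Without 1 library, calls ran from 555 to 597 higher and 471 to 513 lower, the rising median from 0.689 to 0.817 (0.817 without wild-type replicate 2) and rising calls from 92 to 106. Co-overexpression over *HIRA* ran from 121 to 157 higher and 406 to 505 lower, and the difference between stages from 70 to 85 and 345 to 394. These fits without a library, and the own wild type in the fit with all wild types (616 and 550), were in part chosen after seeing the data. The rising median was 0.500 for genes rising in either time course, 1.250 with 20 CPM and 0.889 with under 1 CPM.

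Other wild types moved most values. The *dPCIF1* wild type gave 1261 and 152, a rising median of 1.841 and 230 rising calls, the *HIRA* wild type 985 lower, 0.278 and 40, the *H3.3* wild type 964 higher and 0.946, and the S111A S115A wild type 384 and 261, 0.142 and 22. Rising genes were chosen in part for low levels at 0.5 to 1 h in the *HIRA* and *H3.3* wild types. Rising values against those wild types are therefore not independent of the choice. A reversal here means only that the fitted value of a called named gene changed sign. Its size and adjusted p did not count, and some values lie near 0. Where 1 of the groups lay at the floor, the value depends on the prior count and is no measured size. Genes reversed sign in this way, and the cause was not tested. Against the *dPCIF1* wild type these were *Osi6* 5.898, *Osi7* 3.357, *ect* 4.921, *Rfabg* 0.228, *Hr46* 1.775, *snRNA:U5:14B* 5.710, *snoRNA:Psi28S-3405d* 7.091, *Spn43Aa* 4.919 and *GstD5* 0.984. Against the *HIRA* wild type they were *Cp38* −0.110, *Osi6* 1.755, *Osi7* 3.595, *ect* 0.314, *E(spl)m5-HLH* −0.058, *Dfd* −0.343, *sim* −0.158, *roX2* −0.509, *HmgZ* −0.662, *Rfabg* 1.298, *Pepck* −0.022, *Cp18* −0.053, *Amy-p* 0.132 and *Spn43Aa* 0.778. Against the *H3.3* wild type they were *snRNA:U1:82Eb* 3.045, *snRNA:U5:14B* 3.667 and *snoRNA:Psi28S-3405d* 7.091. Against the S111A S115A wild type they were *Osi6* 3.515, *Osi7* 5.709, *ect* 4.921, *CG13427* −0.630, *E(spl)m5-HLH* −0.443, *slp1* −0.043, *slp2* −0.428, *croc* −0.281, *pdm2* −0.061, *wg* −0.059, *hh* −0.247, *gsb* −0.133, *stumps* −0.054, *ind* −0.296, *sim* −0.162, *Doc3* −0.267, *Doc2* −0.000, *roX1* −0.141, *ci* −0.327, *HmgZ* −1.222, *CG3523* −0.146, *Rfabg* 0.747, *CG42762* −0.263, *CR43425* −0.077 and *GstE14* −0.303.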
